A study of Homo sapiens with 11 samples.

Results

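The genes described here encode 6 inhibitors of cyclin-dependent kinases (CDKs) and 4 cyclins that act in the G1 phase of the cell cycle. They were taken by symbol from the 61464 rows of the deposited count table, by a rule that uses no measured value, although earlier results of these data were known when the genes were chosen. The inhibitors are CDKN1A, CDKN1B and CDKN1C of the CIP/KIP family and CDKN2B, CDKN2C and CDKN2D of the INK4 family. The cyclins are CCND1 and CCND3 of the D type and CCNE1 and CCNE2 of the E type. The RNA was that of HCT116, a long-used line of epithelial cells from a human colorectal carcinoma, labelled as carrying a ras mutation. Cells had been kept for 48 h with GTEA7 (4 libraries), with GTEA1 (4 libraries) or with DMSO, the solvent, as control (3 libraries). GTEA7 and GTEA1 are triterpenoid extracts of Ganoderma, a genus of bracket fungi, and the labels give neither dose nor composition. All 11 libraries were labelled as the same batch, and nothing in the labels says that replicates were separate cultures. What the p-values weigh is thus the spread among these samples alone, which may be technical.

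Passage through G1 is driven by cyclin D bound to CDK4 or CDK6 and then by cyclin E bound to CDK2. Both complexes phosphorylate the retinoblastoma protein RB1, which frees E2F transcription factors to switch on genes of DNA replication. INK4 proteins bind CDK4 and CDK6 and keep D cyclins off them, whereas CIP/KIP proteins bind cyclin-CDK complexes and restrain CDK2 above all. CDKN1A encodes p21, and CCND1 is widely described as a target of Wnt and ras signalling in colon tumours.

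The libraries held 14955685 to 19304211 counts in GTEA7, 13742326 to 16433111 counts in GTEA1 and 13866350 to 17431515 counts in DMSO. All 10 genes were among the 17963 with enough counts to be tested, with between 716 (CDKN2C) and 66652 (CCND1) counts over the 11 libraries. Levels are CPM, read counts scaled to a common library size after correction by TMM factors. The marker sums in this paragraph are the exception, scaled by total counts alone without TMM factors. Fold changes and Benjamini-Hochberg adjusted p-values are from edgeR's quasi-likelihood test over all tested genes, and a gene passed at an adjusted p under 0.05. The error after ± is the SD of a level or the standard error of a log2 fold change, with n = 4 for each extract and n = 3 for DMSO. Of 10 colon epithelial markers, 9 had enough counts to be tested and VIL1 had 28 counts in all, and their sum was 2410 to 2490 CPM in GTEA7, 2790 to 2930 CPM in GTEA1 and 2450 to 2650 CPM in DMSO. In GTEA1 against DMSO 5 of the 9 passed as higher and 4 as lower, against 35.6% and 36.2% of all tested genes. With TMM factors, KRT19 was at 979 to 1050 CPM in GTEA1 and 420 to 471 CPM in DMSO. KRT8 was at 942 to 993 CPM in GTEA1 and 1110 to 1190 CPM in DMSO. Of the leukocyte markers, CD3E had 0 counts in all 11 libraries, and the 8 markers summed to between 1.30 and 2.55 CPM per library. The 8 fibroblast markers summed to 37.4 to 46.9 CPM in GTEA7, 35.8 to 44.1 in GTEA1 and 57.4 to 57.9 in DMSO, almost all of it COL1A1, while DCN had 4 and LUM 2 counts over all libraries. COL3A1 differed within GTEA1, with 1, 0, 2 and 42 counts in replicates 1 to 4. It had 33 to 55 counts per DMSO library and 23 to 36 per GTEA7 library. TMM factors were 0.933 to 0.950 in GTEA1, 1.013 to 1.025 in GTEA7 and 1.047 to 1.065 in DMSO. The size of the differences between groups in these marker sums thus depends on the scaling. The part of these marker differences in the results was not tested. Both extracts were set against the same DMSO libraries, so those comparisons are not independent of each other. In RNA of whole cultures, fewer cells in a cell cycle phase and less RNA per cell cannot be told apart.

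The windows of 250 bases before the annotated transcription start are shown for 6 of the genes that passed in GTEA1 against DMSO, so that those higher and those lower in GTEA1 can be read side by side. They come from RefSeq promoter windows on GRCh38.p14, where windows of 7 of the 10 genes were used. CDKN1C and CCND1 had no entry there. CCNE2 was left out of the search, so the motif results do not cover it. The build used for the counts is not given in the sources used here, and these coordinates belong to RefSeq alone. Capitals mark the GC box GGGCGG, a motif bound by SP1-type factors, on either strand (CCGCCC on the other). Where several starts were listed (3 each for CDKN2C and CCND3), the window with the most GC boxes is shown.
CDKN1A, higher in GTEA1, chr6:36678464-36678713, plus strand: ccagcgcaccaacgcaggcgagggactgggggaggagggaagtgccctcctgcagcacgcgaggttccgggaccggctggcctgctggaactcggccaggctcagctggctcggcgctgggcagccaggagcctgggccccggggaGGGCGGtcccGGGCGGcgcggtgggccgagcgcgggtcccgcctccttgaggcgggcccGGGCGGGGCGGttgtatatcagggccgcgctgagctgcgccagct
CDKN1B, higher in GTEA1, chr12:12717118-12717367, plus strand: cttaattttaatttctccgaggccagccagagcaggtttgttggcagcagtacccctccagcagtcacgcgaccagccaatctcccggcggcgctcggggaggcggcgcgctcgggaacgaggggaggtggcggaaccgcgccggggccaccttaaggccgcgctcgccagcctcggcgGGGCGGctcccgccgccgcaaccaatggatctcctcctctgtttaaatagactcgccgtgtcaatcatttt
CDKN2B, higher in GTEA1, chr9:22009306-22009555, minus strand: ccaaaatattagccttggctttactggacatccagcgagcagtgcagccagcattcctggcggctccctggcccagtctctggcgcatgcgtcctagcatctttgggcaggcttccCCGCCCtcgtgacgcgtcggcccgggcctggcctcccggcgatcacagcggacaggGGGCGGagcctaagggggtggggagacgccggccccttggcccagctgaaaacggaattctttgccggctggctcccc
CCNE1, higher in GTEA1, chr19:29811741-29811990, plus strand: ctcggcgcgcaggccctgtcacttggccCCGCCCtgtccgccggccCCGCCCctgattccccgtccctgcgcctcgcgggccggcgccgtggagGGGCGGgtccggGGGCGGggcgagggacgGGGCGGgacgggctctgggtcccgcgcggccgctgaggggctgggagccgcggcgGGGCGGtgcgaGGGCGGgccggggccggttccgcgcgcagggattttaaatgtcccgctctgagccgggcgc
CDKN2C, lower in GTEA1, chr1:50968456-50968705, plus strand: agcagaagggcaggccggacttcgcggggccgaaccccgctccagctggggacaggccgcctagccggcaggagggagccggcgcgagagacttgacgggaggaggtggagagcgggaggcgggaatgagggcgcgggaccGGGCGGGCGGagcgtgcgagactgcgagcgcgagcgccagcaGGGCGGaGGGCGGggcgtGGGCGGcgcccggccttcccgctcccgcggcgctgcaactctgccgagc
CCND3, lower in GTEA1, chr6:42048689-42048938, minus strand: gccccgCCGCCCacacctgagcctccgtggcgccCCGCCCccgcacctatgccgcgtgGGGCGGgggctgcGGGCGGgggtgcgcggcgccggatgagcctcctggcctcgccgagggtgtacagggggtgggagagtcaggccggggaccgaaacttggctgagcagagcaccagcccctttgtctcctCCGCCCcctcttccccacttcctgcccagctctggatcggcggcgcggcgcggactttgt

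GC boxes numbered 7 in the CCNE1 window, 4 in that of CDKN1A, 2 in that of CDKN2B and 1 in that of CDKN1B, and 5 each in those shown for CDKN2C and CCND3. The windows not shown held 0 and 1 for CDKN2C, 2 and 0 for CCND3 and 2 for CDKN2D, which did not pass in GTEA1 against DMSO. Since the windows of CDKN2C and CCND3 were picked for their GC boxes, these counts cannot be compared between directions. Of all 35116 RefSeq windows of this length, each start counted alone, 42.6% hold at least 1. The other motifs searched, on both strands, were E2F (TTTCGCGC, TTTGGCGC, TTTCCCGC or TTTGCCGC, in 2.79% of all windows), the TATA box TATAAA (10.7%), the CHOP/ATF4 composite TGATGNAA (3.14%), AP-1 (TGANTCA, 6.57%), CRE (TGACGTCA, 1.65%), the E-box CACGTG (6.34%) and TCF (CTTTGA, 11.2%). Among the 11 windows of the 7 genes, the E-box matched in 2 of the 3 CDKN2C windows, neither of them the one shown, and the remaining 6 motifs matched in none. No match says only that these letters are not in these windows, and CCNE2 was not among the genes searched.

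GTEA1 against DMSO asked what the first extract did to these genes. All 3 CIP/KIP genes were higher in GTEA1, by 4.15-fold for CDKN1A, 1.39-fold for CDKN1B and 4.28-fold for CDKN1C. The INK4 genes went apart, with CDKN2B higher (1.93-fold) and CDKN2C lower (to 0.168 of the DMSO level). Both D cyclins were lower, CCND3 more (to 0.379) than CCND1 (to 0.765), and the E cyclins went apart, with CCNE1 higher (1.35-fold) and CCNE2 lower (to 0.134). In all, 9 of the 10 genes passed, 5 higher and 4 lower, where 71.8% of all tested genes passed (35.6% higher and 36.2% lower), so that the count alone does not set these genes apart. Over all genes 6390 were higher and 6505 lower, and with scaling by library size only 4828 were higher and 8179 lower, while the 9 genes kept their directions. The median log2 fold change was 0.07 over the 10 genes and -0.01 over all tested genes. The libraries of GTEA1 and DMSO did not overlap for the same number, 9 of 10, against 68.7% of all genes.

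**Figure D1:**
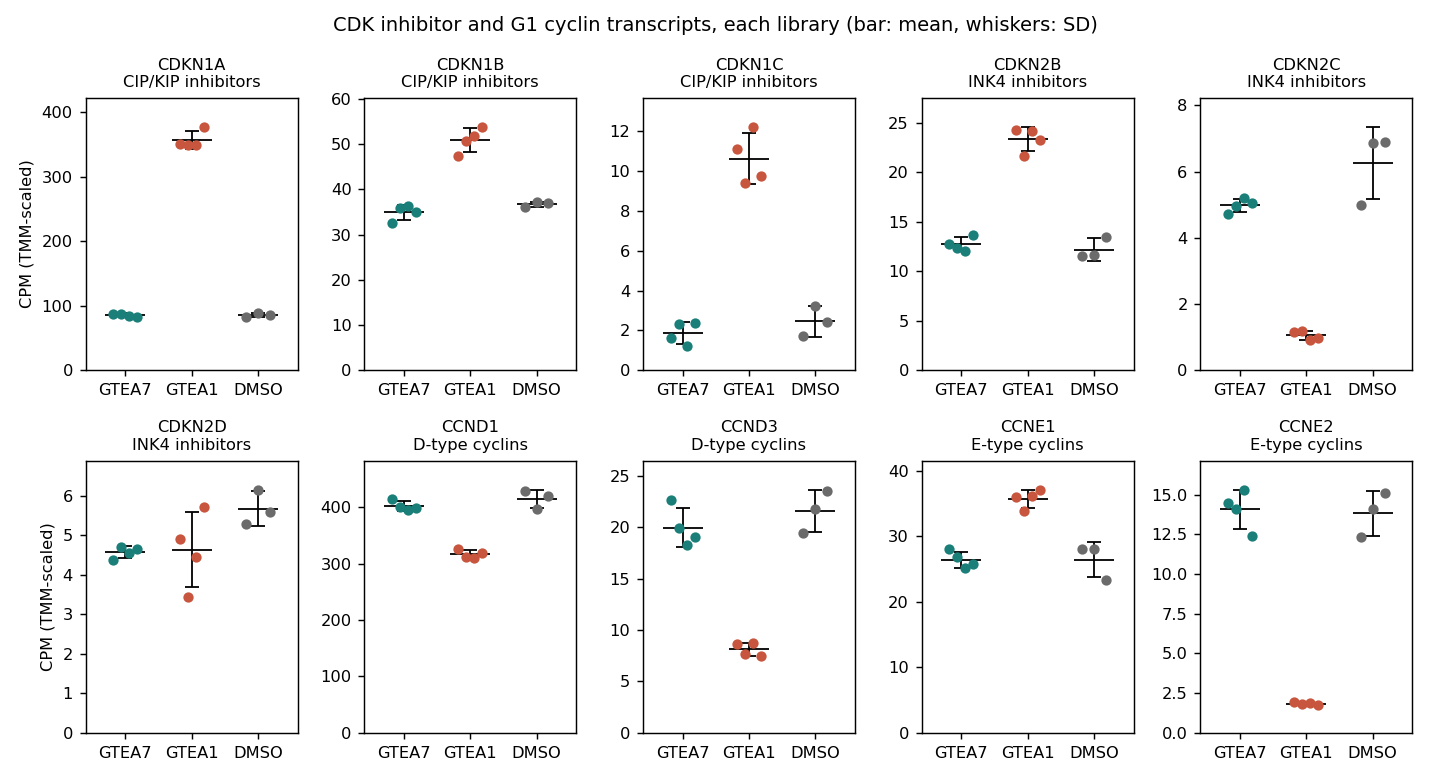
Level of each gene in CPM (vertical axis, from 0, its own scale per panel) in every library of GTEA7 (4), GTEA1 (4) and DMSO (3), with the mean as a bar and the SD as whiskers. The GTEA1 points stand apart from both other groups in 9 panels, and in the CDKN2D panel they span from 3.45 to 5.72 CPM, across the GTEA7 and most DMSO points.

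Among the CIP/KIP genes, CDKN1A (ENSG00000124762) was at 351, 350, 349 and 377 CPM in the 4 GTEA1 libraries, against 82.9, 89.3 and 85.7 CPM in DMSO. Every GTEA1 library was far above every DMSO library, and the log2 fold change of 2.05 ± 0.039 (adjusted p = 1.5e-41) was the 364th highest of the 17963 tested genes. CDKN1B (ENSG00000111276), which encodes p27 and is best known for control of its protein's stability, was at 47.5, 50.8, 51.9 and 53.8 CPM in GTEA1, against 36.1, 37.2 and 36.9 CPM in DMSO. The groups did not overlap, and the log2 fold change was 0.48 ± 0.053 (adjusted p = 2.3e-11). CDKN1C (ENSG00000129757), the imprinted gene of p57, was at 11.1, 9.40, 12.2 and 9.76 CPM in GTEA1, against 1.70, 3.24 and 2.42 CPM in DMSO. It was the least abundant of the 3, with 29 to 60 counts per DMSO library, but its log2 fold change of 2.10 ± 0.16 (adjusted p = 1.1e-14) was close to that of CDKN1A and ranked 332nd highest.

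Among the INK4 genes, CDKN2B (ENSG00000147883), which encodes p15 and is known as a gene induced by TGF-beta, was at 24.3, 21.7, 24.2 and 23.3 CPM in GTEA1, against 11.5, 11.6 and 13.5 CPM in DMSO. All GTEA1 libraries were above all DMSO libraries (log2 fold change 0.95 ± 0.078, adjusted p = 1.6e-15). CDKN2C (ENSG00000123080), which encodes p18, was at 1.15, 1.18, 0.917 and 0.963 CPM in GTEA1, or 14 to 16 counts a library, against 4.99, 6.86 and 6.90 CPM in DMSO. Its log2 fold change of -2.57 ± 0.18 (adjusted p = 3e-18) was the 232nd lowest of all. CDKN2D (ENSG00000129355), which encodes p19, was at 4.91, 3.45, 4.45 and 5.72 CPM in GTEA1, against 5.29, 6.15 and 5.59 CPM in DMSO, and the groups overlapped. Its log2 fold change of -0.29 ± 0.13, with a 95% interval of -0.56 to -0.02 before adjustment, did not pass (adjusted p = 0.051). The call sat on the threshold. CDKN2D passed under 7 of 19 other settings, among them without DMSO replicate 1 (-0.34, adjusted p = 0.041), without GTEA1 replicate 1 (-0.31, adjusted p = 0.048) and without GTEA1 replicate 4 (-0.41, adjusted p = 0.0098).

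Of the D cyclins, CCND1 (ENSG00000110092) was at 326, 312, 310 and 319 CPM in GTEA1, against 428, 396 and 419 CPM in DMSO. The groups did not overlap, though the change was the smallest among the genes that passed (log2 fold change -0.39 ± 0.034, adjusted p = 2.3e-14). CCND3 (ENSG00000112576) was at 8.67, 7.71, 8.71 and 7.51 CPM in GTEA1, against 19.4, 21.8 and 23.5 CPM in DMSO (log2 fold change -1.40 ± 0.089, adjusted p = 1.3e-19). In GENCODE v29, 497 bases of exons of LTO1 on the other strand overlap those of CCND1, and the strand setting of the counting is not given. LTO1 was at 24.2 ± 1.5 CPM in GTEA1 and 19.8 ± 0.75 CPM in DMSO (log2 fold change 0.29 ± 0.067, adjusted p = 0.00013), the opposite direction to CCND1 and a small fraction of its counts. The remaining D cyclin, CCND2, had 24 counts over the 11 libraries and was not tested.

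Of the E cyclins, CCNE1 (ENSG00000105173) was at 36.0, 33.8, 36.1 and 37.0 CPM in GTEA1, against 28.0, 28.0 and 23.3 CPM in DMSO (log2 fold change 0.43 ± 0.062, adjusted p = 2.7e-08). The GTEA1 libraries were all above the DMSO libraries. CCNE2 (ENSG00000175305), whose protein partners CDK2 as CCNE1's does, was at 1.92, 1.84, 1.90 and 1.73 CPM in GTEA1, or 25 to 29 counts a library, against 12.3, 14.1 and 15.1 CPM in DMSO. The log2 fold change of -2.90 ± 0.13 (adjusted p = 1.1e-25) was the 136th lowest of all tested genes. INTS8, which encodes an Integrator subunit, overlaps CCNE2 on the other strand by 1629 bases of exon in GENCODE v29, so that reads there cannot be assigned to one gene without strand. INTS8 was more abundant and nearly level, at 115 ± 2.8 CPM in GTEA1 and 109 ± 2.9 CPM in DMSO (log2 fold change 0.08 ± 0.039, adjusted p = 0.064). How many of the CCNE2 counts came from INTS8 was not tested.

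**Figure D2:**
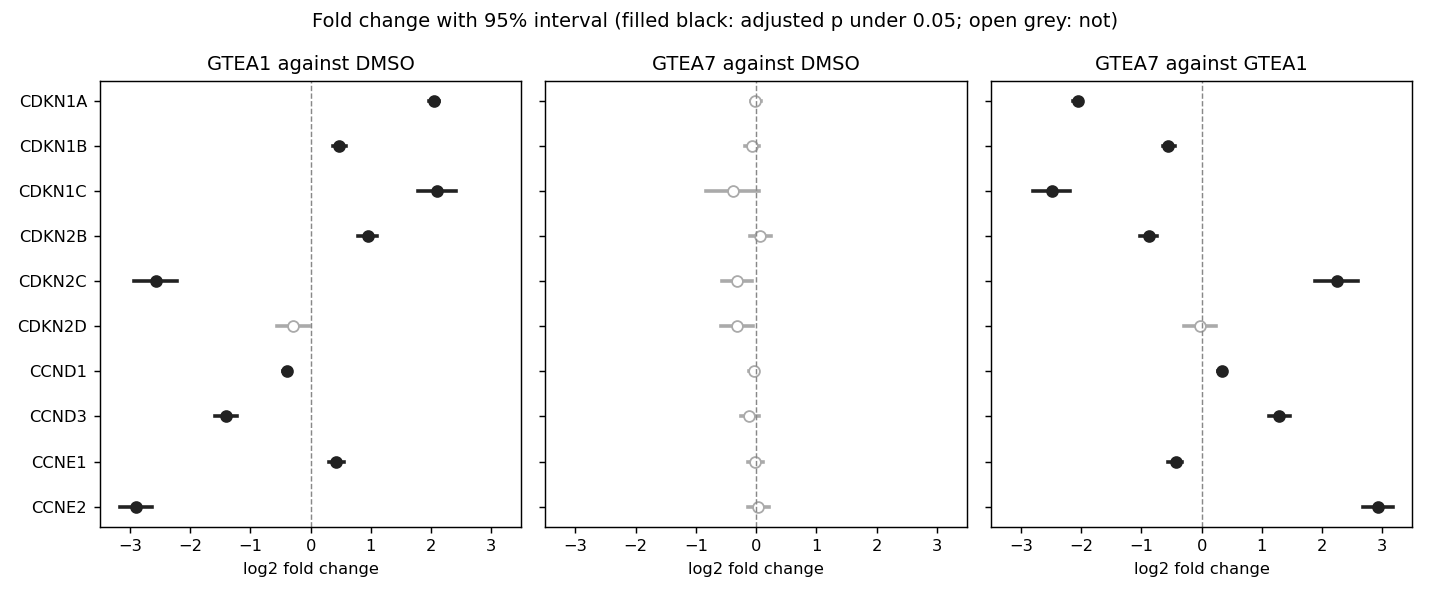
Log2 fold change of each gene (horizontal axis) with its 95% interval, in GTEA1 against DMSO, GTEA7 against DMSO and GTEA7 against GTEA1, filled black where the adjusted p was under 0.05 and open grey where not. In GTEA1 against DMSO the values ran from -2.90 (CCNE2) to 2.10 (CDKN1C), while all 10 values of GTEA7 against DMSO lay between -0.39 and 0.07 and are open.

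Levels were compared between genes per kilobase of exon in GENCODE v29. In GTEA1 the order from the top was CDKN1A at 117 ± 4.4 CPM per kb, CCND1 at 65.6 ± 1.5, CDKN1B at 18.1 ± 0.95 and CCNE1 at 14 ± 0.53 CPM per kb, and the last 2 places were those of CCNE2 (0.420 ± 0.019) and CDKN2C (0.317 ± 0.039 CPM per kb). In DMSO it was CCND1 at 85.7 ± 3.4 CPM per kb, CDKN1A at 28.2 ± 1.1, CDKN1B at 13.1 ± 0.21 and CCNE1 at 10.4 ± 1.1 CPM per kb. Below them in DMSO, CDKN2D (3.78 ± 0.29), CCND3 (3.71 ± 0.35), CCNE2 (3.14 ± 0.33) and CDKN2B (3.00 ± 0.27 CPM per kb) followed in that order. Ranges over libraries overlapped between each of them and the next. The range of CDKN2D lay above those of CCNE2 and CDKN2B, and that of CCND3 above that of CDKN2B. CDKN2C (1.88 ± 0.33) and CDKN1C (0.990 ± 0.31 CPM per kb) came last in DMSO. GTEA7 had the same first 4 genes in the same order as DMSO, with CCND1 at 83.2 ± 1.7 and CDKN1A at 28.0 ± 0.84 CPM per kb. In every GTEA1 library CDKN1A was above CCND1 on this scale, and in every GTEA7 and DMSO library it was below.

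Summed within a library over the chosen genes of each family, these levels gave a total and the share of each gene in it. The length used was that of all annotated exons of a gene together, so levels and shares also depend on which transcripts were made. Whether genes of a family offset each other was not tested. CIP/KIP transcripts summed to 139 ± 4.8 CPM per kb in GTEA1 and 42.2 ± 1.6 in DMSO, and CDKN1A made up 83.9% ± 0.6 of the sum in GTEA1 and 66.7% ± 0.12 in DMSO. INK4 transcripts of CDKN2B, CDKN2C and CDKN2D summed to 9.16 ± 0.82 CPM per kb in GTEA1 and 8.66 ± 0.7 in DMSO, with overlapping ranges (7.99 to 9.84 and 7.86 to 9.12). CDKN2A, an INK4 gene outside the chosen set, was not in this sum. It was at 4.38 to 5.38 CPM per kb in GTEA1 and 3.45 to 4.04 in DMSO. Within that sum CDKN2B had 63.1% ± 3.6 in GTEA1 and 34.7% ± 2.6 in DMSO, and CDKN2C had 3.50% ± 0.69 in GTEA1 and 21.6% ± 2.1 in DMSO. E cyclin transcripts summed to 14.4 ± 0.53 CPM per kb in GTEA1 (range 13.7 to 14.9) and 13.5 ± 0.83 in DMSO (range 12.6 to 14.2), so their ranges overlapped too. The share of CCNE2 in that sum was 2.91% ± 0.18 in GTEA1 and 23.4% ± 3.6 in DMSO. D cyclin transcripts summed to 67.0 ± 1.5 CPM per kb in GTEA1 and 89.5 ± 3.3 in DMSO, with CCND1 at 97.9% ± 0.16 of the sum in GTEA1 and 95.8% ± 0.46 in DMSO.

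**Figure D3:**
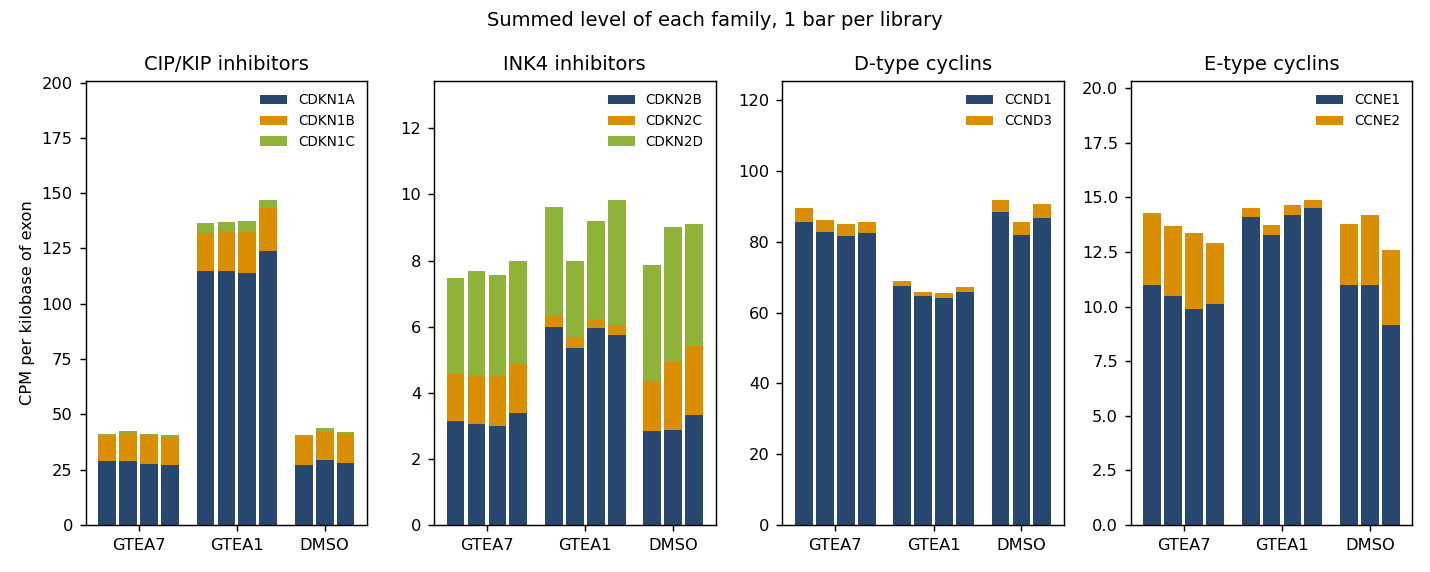
Level of each family in CPM per kilobase of exon (vertical axis, from 0, its own scale per panel), stacked by member, with 1 bar for each library of GTEA7, GTEA1 and DMSO. The INK4 bars hold CDKN2B, CDKN2C and CDKN2D, without CDKN2A. The CIP/KIP bars of GTEA1 reach 136 to 147 CPM per kb, against 40.7 to 43.8 in DMSO, whereas the E cyclin bars are of like height in all groups while the CCNE2 part nearly vanishes in GTEA1.

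GTEA7 against DMSO asked the same of the second extract. None of the 10 genes passed edgeR's test, where 22.5% of all tested genes did (2159 higher and 1877 lower, or 1255 higher and 2954 lower with scaling by library size only), and limma-voom and the Wald test of DESeq2 also called 0. At an unadjusted p under 0.05 there were 2, CDKN2C and CDKN2D. The median log2 fold change was -0.06 over the 10 genes and -0.01 over all tested genes. For CDKN1A the 4 GTEA7 libraries were at 87.7, 87.7, 84.2 and 82.6 CPM, within or next to the DMSO values above, and the 95% interval of the log2 fold change was -0.09 to 0.08. Intervals were also narrow for CCND1 (-0.11 to 0.03), CDKN1B (-0.18 to 0.04), CCNE1 (-0.13 to 0.12), CCNE2 (-0.14 to 0.21), CDKN2B (-0.10 to 0.24) and CCND3 (-0.25 to 0.04). A change of the size seen with GTEA1 in these 7 genes lay outside these intervals.

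For the other 6 of these 7 genes the GTEA7 libraries overlapped the DMSO libraries given above. CDKN1B was at 32.6, 35.8, 36.4 and 35.1 CPM in GTEA7, CDKN2B at 12.8, 12.4, 12.1 and 13.7 CPM, and CCND1 at 414, 400, 395 and 398 CPM. CCND3 was at 22.6, 19.9, 18.3 and 19 CPM in GTEA7 and CCNE1 at 28.0, 26.8, 25.2 and 25.7 CPM. CDKN1B had 3 of its 4 GTEA7 libraries below every DMSO library, and the others were mixed. Of the family sums, CIP/KIP transcripts were at 41.2 ± 0.8 CPM per kb in GTEA7 and 42.2 ± 1.6 in DMSO, D cyclins at 86.6 ± 2 CPM per kb in GTEA7 and 89.5 ± 3.3 in DMSO, and E cyclins at 13.6 ± 0.57 CPM per kb in GTEA7 and 13.5 ± 0.83 in DMSO. The share of CCNE2 among E cyclin transcripts was 23.6% ± 1.8 in GTEA7 and 23.4% ± 3.6 in DMSO. INK4 transcripts, again without CDKN2A, summed to 7.68 ± 0.23 CPM per kb in GTEA7 (range 7.48 to 8.01) and 8.66 ± 0.7 in DMSO (range 7.86 to 9.12). CDKN2B made up 40.9% ± 1.5 of that sum in GTEA7 (range 39.4 to 42.2) and 34.7% ± 2.6 in DMSO (range 31.7 to 36.4), so that the sums overlapped and the CDKN2B shares did not. The level of CDKN2B itself overlapped and did not pass (log2 fold change 0.07 ± 0.083, adjusted p = 0.61).

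The means of CDKN2C, CDKN2D and CDKN1C were lower in GTEA7 than in DMSO, without passing. CDKN2C was at 4.72, 4.96, 5.19 and 5.06 CPM in GTEA7, against 4.99, 6.86 and 6.90 in DMSO (log2 fold change -0.32 ± 0.12, adjusted p = 0.053). Without DMSO replicate 1, the lowest of the DMSO libraries, it was at -0.46 and passed (adjusted p = 0.0089). CDKN2D was at 4.38, 4.71, 4.54 and 4.66 CPM in GTEA7, all below the 3 DMSO libraries (log2 fold change -0.31 ± 0.13, adjusted p = 0.075). It was the only one of the 10 without overlap between GTEA7 and DMSO, where 30.5% of all tested genes had none. CDKN1C was at 1.61, 2.30, 1.24 and 2.36 CPM in GTEA7, or 21 to 45 counts a library, with a wide interval of -0.83 to 0.04 (adjusted p = 0.2). Without DMSO replicate 1 its log2 fold change was -0.61 and passed (adjusted p = 0.047), and 2 of the 10 genes were then called.

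GTEA7 against GTEA1 set the extracts against each other directly. Of the 10 genes 9 passed, 4 higher and 5 lower in GTEA7, where 72.7% of all tested genes passed (36.2% higher and 36.4% lower). In numbers these were 6510 higher and 6546 lower in GTEA7, or 7653 higher and 5455 lower with scaling by library size only. CCNE2 was 7.62-fold higher in GTEA7, at 14.5, 14.1, 15.3 and 12.4 CPM, against 1.92, 1.84, 1.90 and 1.73 CPM in GTEA1 (log2 fold change 2.93 ± 0.12, adjusted p = 6.3e-27, the 105th highest of all tested genes). CDKN2C (2.25 ± 0.18, adjusted p = 2.7e-16), CCND3 (1.29 ± 0.085, adjusted p = 3.3e-19) and CCND1 (0.34 ± 0.032, adjusted p = 1.1e-13) were higher in GTEA7 as well. CDKN1C was lowest relative to GTEA1 (-2.49 ± 0.15, adjusted p = 1.6e-17), before CDKN1A (-2.06 ± 0.036, adjusted p = 1.2e-43), CDKN2B (-0.88 ± 0.07, adjusted p = 6.6e-16), CDKN1B (-0.55 ± 0.049, adjusted p = 2.7e-14) and CCNE1 (-0.43 ± 0.057, adjusted p = 2.3e-09). The libraries of GTEA7 and GTEA1 did not overlap for any of these 9, where 65.3% of all tested genes had no overlap. CDKN2D did not pass, at 4.57 ± 0.15 CPM in GTEA7 and 4.63 ± 0.94 CPM in GTEA1, with an interval of -0.29 to 0.24. The extracts were given at unstated doses, so these differences are between the treatments as applied.

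The partners and targets of these proteins were counted in lists of genes, read against the share of all genes that passed. Of 21 tested G1 kinases, pocket proteins and E2F factors, 13 were lower in GTEA1 than in DMSO, 6 were higher and 2 did not pass, with a median log2 fold change of -0.48. Over all tested genes 36.2% were lower in GTEA1, 35.6% were higher and the median was -0.01. The kinases partnered by D cyclins, CDK4 (-0.48 ± 0.05) and CDK6 (-0.80 ± 0.044), and the partner of E cyclins, CDK2 (-0.85 ± 0.058), all fell, as did the activating phosphatase CDC25A (-1.89 ± 0.088). E2F1 fell to 4.93 ± 1.2 CPM in GTEA1, against 22.3 ± 1.2 CPM in DMSO (-2.18 ± 0.1, adjusted p = 1.7e-23). Its dimer partner TFDP1 (-1.43 ± 0.043) and the RB1 relative RBL1 (-1.44 ± 0.072) fell too, and RB1 itself fell less (-0.34 ± 0.045). CDKN2A, the INK4 gene next to CDKN2B, was also kept in this list and is 1 of the 6 higher in GTEA1 (0.41 ± 0.077, adjusted p = 5.5e-06).

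All 22 tested E2F target genes of S-phase entry were lower in GTEA1 than in DMSO, where 36.2% of all genes were, with a median log2 fold change of -2.00. They included MCM10 (-2.44 ± 0.071), UHRF1 (-1.71 ± 0.05) and GINS2 (-2.80 ± 0.086). None of the chosen genes is in this list, which was drawn up with earlier results of these data known. The count of 22 thus leaves out the E cyclins, of which CCNE1 rose. CCNE2 (-2.90) and CDKN2C (-2.57) lay below the median of this list, and CCNE1 (0.43) lay above its highest value of -0.32. Of the 13 S and M phase cyclins and kinases, 12 fell, among them cyclin B1, CCNB1 (-1.75 ± 0.048), and AURKA (-1.76 ± 0.069), and the phosphatase CDC25B rose (0.94 ± 0.041). CCNA2 belongs to this list and to the E2F targets, and is counted in each.

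Of 18 genes of ubiquitin ligases that act on CDK inhibitors or G1 cyclins, 10 were lower in GTEA1, 5 higher and 3 not past the threshold, with a median of -0.15, where 71.8% of all tested genes passed. SKP2, which directs p27 and p21 to degradation, fell to 18.7 ± 1.2 CPM in GTEA1, against 54.3 ± 2.9 CPM in DMSO (-1.55 ± 0.06, adjusted p = 2.4e-28), and DTL, a substrate receptor that targets p21, fell by a like amount (-1.51 ± 0.062). FBXW7, the receptor for cyclin E, was higher in GTEA1 at 69.4 ± 3.7 CPM, against 30.5 ± 1.7 CPM in DMSO (1.19 ± 0.055, adjusted p = 2.9e-25). The other 4 that rose were FBXO31 (0.35 ± 0.051), CKS1B (0.27 ± 0.046), CUL4A (0.25 ± 0.039) and CUL3 (0.18 ± 0.039). Of 29 transcription factors known to act on these genes, 17 were higher in GTEA1, 8 were lower and 4 did not pass (median 0.27), against 35.6% higher and 36.2% lower over all tested genes. FOSL1 (3.39 ± 0.054), ATF3 (3.61 ± 0.073), ATF4 (1.48 ± 0.036) and SMAD3 (1.31 ± 0.04) had the smallest p-values. MYC did not pass (-0.06 ± 0.035, adjusted p = 0.12).

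**Figure D4:**
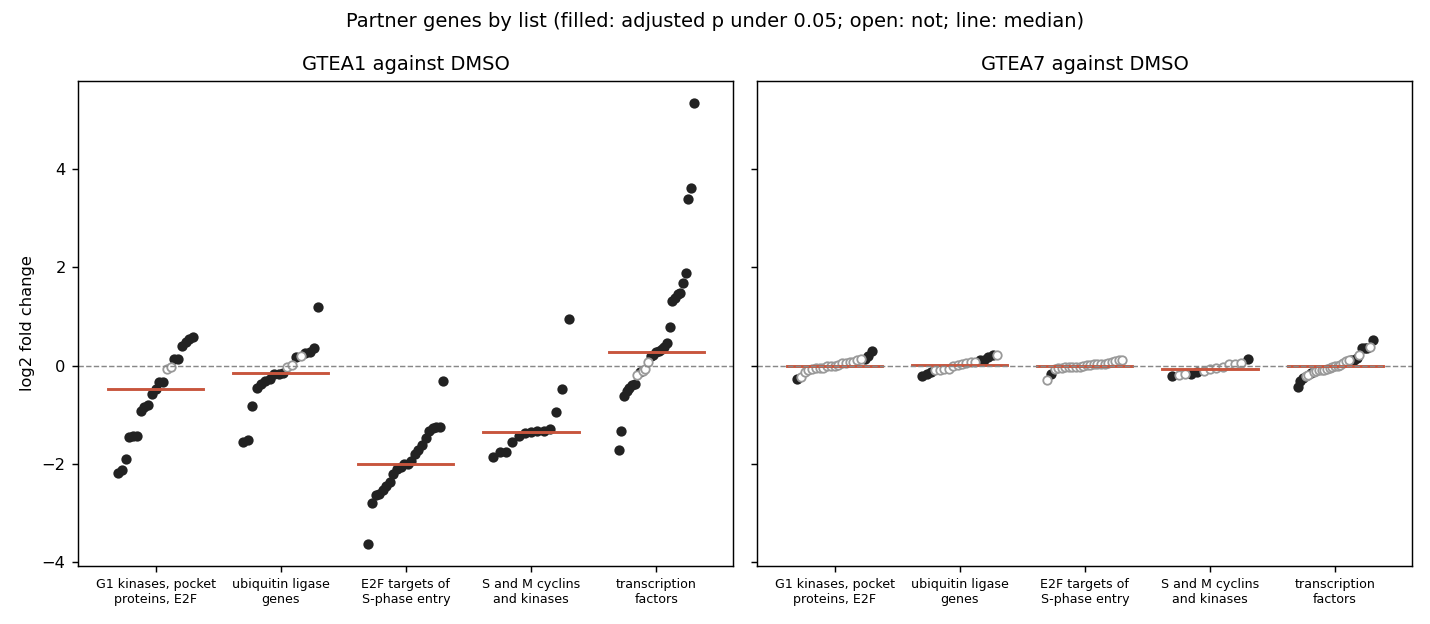
Log2 fold change (vertical axis) of every tested gene in 5 lists of partner genes, in GTEA1 against DMSO (left) and GTEA7 against DMSO (right), filled where the adjusted p was under 0.05 and open where not, with the list's median as a line. All 22 E2F targets lie below 0 in GTEA1 around a median of -2.00, and no gene in the right panel lies beyond -0.43 or 0.53.

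In GTEA7 against DMSO the same lists moved little, and every gene lay between -0.43 and 0.53. The counts that follow stand against 12.0% of all tested genes higher in GTEA7, 10.4% lower and 22.5% in either direction. Of the 21 G1 genes, E2F6 (0.30 ± 0.054), MNAT1 (0.19 ± 0.069) and CCNH (0.14 ± 0.052), the last 2 being subunits of the CDK-activating kinase, rose and E2F5 fell (-0.28 ± 0.078). In GTEA1 against DMSO, MNAT1 (0.55 ± 0.068, adjusted p = 4.5e-10) and CCNH (0.13 ± 0.053, adjusted p = 0.025) were higher too. CDK7 of the same list was higher in GTEA1 (0.59 ± 0.052) and did not pass in GTEA7 (0.12 ± 0.053, adjusted p = 0.089). Of the 22 E2F targets 1 was lower in GTEA7 and the other 21 did not pass. Among the S and M phase genes CHEK1 rose (0.14 ± 0.048) and AURKB (-0.21 ± 0.07), PLK1 (-0.16 ± 0.052) and BUB1 (-0.12 ± 0.046) fell. Among the ubiquitin ligase genes 4 rose, DTL (0.21 ± 0.051), CUL1 (0.17 ± 0.041), SKP1 (0.11 ± 0.039) and CUL4A (0.11 ± 0.039), and 3 fell, RNF123 (-0.20 ± 0.051), FZR1 (-0.16 ± 0.056) and CDC20 (-0.13 ± 0.045). Of the transcription factors 7 rose and 4 fell. SMAD3 rose to 115 ± 2.1 CPM in GTEA7, against 79.7 ± 1.3 CPM in DMSO (0.53 ± 0.04, adjusted p = 3.6e-15), and MYC to 197 ± 2.6 CPM in GTEA7, against 154 ± 1.1 CPM in DMSO (0.36 ± 0.035, adjusted p = 1.1e-11). EGR1 (-0.43 ± 0.1), TP73 (-0.32 ± 0.083), JUN (-0.25 ± 0.082) and TCF7L2 (-0.15 ± 0.039) fell.

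These small counts of GTEA7 against DMSO depended on single libraries. The G1 count of 4 was 2 without DMSO replicate 1 or 2 or GTEA7 replicate 1 or 2, and 1 without DMSO replicate 3. The count of 7 ubiquitin ligase genes was 3 without DMSO replicate 2 and 4 without DMSO replicate 3 or GTEA7 replicate 3. For the S and M phase genes the 4 calls became 0 without DMSO replicate 2 or 3 or GTEA7 replicate 3, 2 without GTEA7 replicate 1 or 2, and 1 without GTEA7 replicate 4. For the E2F targets the single call became 5 without GTEA1 replicate 1, 4 without GTEA1 replicate 4 or GTEA7 replicate 4, 3 without DMSO replicate 1, and 2 without GTEA1 replicate 3 or GTEA7 replicate 1. The GTEA1 libraries enter here through the shared estimate of the spread.

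In GTEA7 against GTEA1 all 22 E2F targets were higher in GTEA7, with a median log2 fold change of 2.03, and so were 12 of the 13 S and M phase genes and 14 of the 21 G1 genes, where 36.2% of all tested genes were higher, 36.4% were lower and the median was 0.00. Of the transcription factors 17 were lower and 9 higher in GTEA7. Among the ubiquitin ligase genes 8 were higher, SKP2 (1.45 ± 0.057) and DTL (1.72 ± 0.057) with the smallest p-values, and 6 were lower, led by FBXW7 (-1.12 ± 0.049).

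Genes whose log2 CPM ran most alike over the 11 libraries were sought among those with a mean of at least 1 CPM. For CDKN1A the closest were RBCK1, UPP1 and SARS1 (Pearson's r = 0.999 each), and for CCNE2 they were TAF15, RBMX and DHX9 (r = 0.999 each). CCND3 ran closest to CLUH, FOXM1 and CDCA4, and CDKN2C to CENPX, TPI1 and RIMKLA (r from 0.995 to 0.996). CCNE1 ran closest to JAK2 (r = 0.978), and CDKN2D had no gene above HRH1 (r = 0.888). Such values are a description of 11 libraries that share 3 treatments, and a high r was common: for CDKN1A, 3392 of 15329 genes had an r over 0.9.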

How the data were processed

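Polyadenylated RNA was sequenced on an Illumina NovaSeq after TRIzol extraction and NEBNext Ultra library preparation, per the labels' protocols. What the authors deposited is a table of unnormalized counts by gene and library. Of tools, the submitters' processing notes list DESeq 1.10.1, HTSeq 0.5.4, GATK, Picard, STAR and SAMtools 0.1.18, with no role for any. No source used here gives the genome build, annotation or strand setting. Symbols came from a table of gene names (60370 IDs matched), exon lengths and overlaps from GENCODE v29. Genes were filtered with filterByExpr of edgeR, scaled by TMM and fitted in 1 quasi-likelihood model of all 11 libraries (edgeR 4.0.16, limma 3.58.1, DESeq2 1.42.0, R 4.3.3). Standard errors were derived from the fold change and its F, and 95% intervals from its t distribution. Counting error and replicate spread both enter these p-values. The method was tested on simulated data, in which far fewer genes changed than between GTEA1 and DMSO here. The members and lists were chosen with earlier results of these data known. All 10 members are named, and from each list those with the 4 smallest adjusted p-values per extract, those of any direction holding 5 or fewer, and a few genes of interest, except that some of these are not reported here. No libraries were left out. Rows with other IDs took 0.727% of counts and stayed in the fit. All replicate pairs differed beyond sampling noise (chi-square per degree of freedom 1.39 to 4.09). Alternatives are listed in the closing section.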

Additional observations from a re-analysis of the deposited data

Results flagged for a closer look

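CDKN1A in GTEA1 was singled out by Dixon's test for a lone value, with a gap of 0.923 of the group's range, above the 95% critical value for 4 libraries. GTEA1 replicate 4 was at 377 CPM and the other 3 libraries at 349 to 351 CPM, all far above DMSO. The log2 fold change of GTEA1 against DMSO ranged from 2.02 to 2.08 when each library was left out in turn. In all, 20 groups of 4 libraries were tested in this way for the 10 genes, and chance singles out about 5% of such groups.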

How the results depend on the processing

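For GTEA1 against DMSO, 183 of 190 values (10 genes under 19 other settings) kept direction and call, 187 of 190 did so for GTEA7 against GTEA1 and 166 of 190 for GTEA7 against DMSO, where 8 newly passed and 16 turned sign. For GTEA1 against DMSO all 7 that differed were CDKN2D, which also passed with library size only (-0.45), a stricter filter, 1 CPM or more in 3 libraries or more (-0.29), the replicate block (-0.36) and limma-voom (-0.31). The cause was not tested for any change listed here. Between 9 and 10 genes passed in that comparison and 9 in GTEA7 against GTEA1, under every alternative, libraries left out included. For GTEA7 against DMSO the 0 members became 3 with library size only (CDKN2C, CDKN2D and CCND1, with the median of all genes at -0.060), 1 with the stricter filter, 1 with the replicate block and 1 with only the compared groups fitted, and 0 to 2 without single libraries. Of the partner lists in GTEA7 against DMSO, the G1 genes had 2 calls with the DESeq2 Wald test (1 to 5 without single libraries), the ubiquitin ligase genes 3 to 7 without single libraries, the S and M phase genes 1 with the replicate block and 0 with the Wald test (0 to 4 without single libraries), and the E2F targets 3 with DESeq2 size factors, 2 with library size only, 5 with no filter, 2 with the stricter filter, 5 with the replicate block, 2 with limma-voom and 4 with only the compared groups (1 to 5 without single libraries).

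Values near 0 that turned sign, none past the threshold, were in GTEA7 against DMSO CDKN1A (0.00 with DESeq2 size factors or its Wald test, 0.01 with no filter, -0.03 to 0.02 without single libraries), CCNE1 (0.00, 0.00 and 0.01 under the same settings, -0.08 to 0.04 without single libraries) and CCNE2 (-0.02 with library size only, -0.05 to 0.09 without single libraries), and in GTEA7 against GTEA1 CDKN2D (0.08 with library size only, -0.14 to 0.10 without single libraries). Same-numbered libraries did not deviate together (r from -0.055 to 0.026), so the replicate number is not taken as a pairing. In GTEA1 against DMSO, library size alone put the all-gene median at -0.167, and the 9 genes kept their directions. Depth limits CDKN1C, with 21 to 45 counts per GTEA7 library, and CDKN2C, with 14 to 16 per GTEA1 library.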
